A study of Drosophila melanogaster with 3 samples.

Results

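The genes described here are 6 genes of the Drosophila JNK (Jun N-terminal kinase) pathway or linked to it: hep, bsk, Jra, kay, puc and cbt. They were chosen by name, with their region counts and signals in the same lists already known, out of 18164 annotated genes on the 6 main chromosome arms. For each gene, every region summit inside the gene or up to 5 kb outside it was taken. For cbt, which lies inside the much longer gene ush, only summits whose nearest annotated transcription start is that of cbt were taken. This gave 57 of the 30000 summits of the pooled region list, of which 15 were among the 3567 summits of the stricter list.

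The data are regions found by chromatin immunoprecipitation with sequencing (ChIP-seq) in 3 biological replicates of 1 group. The material was whole fly embryos of both sexes, aged 0 to 24 h, from a transgenic line that makes the zinc finger protein zf30C with GFP at its C-terminal end, and the antibody target is labelled as zf30C. The labels' free text also calls these libraries an input control, which contradicts that, and no control library or second condition was analysed here. Whole embryos mix all tissues and many stages, so a region may come from some cells only.

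The stricter list was cut by the irreproducible discovery rate (IDR), which scores how alike the replicates rank a region, and its entries are called peaks here. They are exactly the 3567 summits with the highest signal in the pooled list, down to a signal of 193. Signal is the value the authors deposited for each region. No source used here gives its unit, and it can be compared only within 1 list. Rank 1 is the highest signal in a list. The lists hold no read counts, so the depth of each replicate and the error of a single height are unknown. Since the genes were chosen with these values known, they are described without tests.

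In flies, hep encodes the kinase that phosphorylates and activates the Jun kinase encoded by bsk. The active kinase acts on Jun, encoded by Jra, which pairs with Fos, encoded by kay, to form the transcription factor AP-1. puc encodes a phosphatase that inactivates the Jun kinase and is itself a target gene of AP-1, which closes a negative feedback loop. The pathway is best known in the embryo for dorsal closure, when the epidermal sheets move up and meet at the back. cbt (cabut) encodes a zinc finger transcription factor related to the Sp and KLF proteins, and it is also needed for dorsal closure.

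The sequences at the peaks that the results turn on are shown first, each as the plus strand of a summit base with 100 bases on either side, from the Release 6 assembly that dm6 denotes. They are the strongest peak of cbt, the strongest peak of puc, another intronic puc peak, the puc peak with an AP-1 match, and the single hep peak. Capitals mark matches on either strand to GAGAG (bound by GAGA factor), to TGANTCA (AP-1) or to ACACTG, the 6-mer with the largest gain near summits at peaks of other genes.
cbt, chr2L:479983-480183: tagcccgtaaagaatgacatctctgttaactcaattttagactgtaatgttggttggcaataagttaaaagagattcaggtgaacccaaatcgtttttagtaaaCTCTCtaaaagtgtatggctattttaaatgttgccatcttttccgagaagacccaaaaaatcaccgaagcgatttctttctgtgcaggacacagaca
puc, chr3R:8120012-8120212: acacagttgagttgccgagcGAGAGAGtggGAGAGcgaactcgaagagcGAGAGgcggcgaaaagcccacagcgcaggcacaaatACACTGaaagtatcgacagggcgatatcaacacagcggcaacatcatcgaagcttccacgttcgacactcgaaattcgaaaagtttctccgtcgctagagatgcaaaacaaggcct
puc, chr3R:8112995-8113195: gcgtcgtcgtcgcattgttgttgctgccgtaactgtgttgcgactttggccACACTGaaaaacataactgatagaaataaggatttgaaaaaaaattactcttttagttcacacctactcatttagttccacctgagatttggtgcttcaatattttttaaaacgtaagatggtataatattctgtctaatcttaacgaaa
puc, chr3R:8114129-8114329: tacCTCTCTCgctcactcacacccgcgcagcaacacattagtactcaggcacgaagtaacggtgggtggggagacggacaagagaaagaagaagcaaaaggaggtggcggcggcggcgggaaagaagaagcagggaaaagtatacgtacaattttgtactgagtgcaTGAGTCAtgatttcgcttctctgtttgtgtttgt
hep, chrX:13088087-13088287: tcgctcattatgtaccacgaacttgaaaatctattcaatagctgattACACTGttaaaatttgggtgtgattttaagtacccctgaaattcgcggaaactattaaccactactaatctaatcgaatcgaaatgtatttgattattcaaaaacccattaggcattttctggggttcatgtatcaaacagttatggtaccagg

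In the cbt sequence the capitals are a CTCTC, the reverse complement of GAGAG, which starts at 4 bp from the summit. Positions are those of a match's first base on the plus strand, with the summit at 0. In the first puc sequence ACACTG starts at -15 bp, and 4 GAGAG matches, some overlapping, lie before it. ACACTG starts at -49 bp in the second puc sequence and at -53 bp in that of hep. In the third puc sequence TGAGTCA, a match to TGANTCA, starts at 67 bp, and 2 overlapping matches to GAGAG, read as CTCTCTC, lie at the opposite end.

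Peaks were unevenly shared among the 6 genes, as the plot of signal by gene shows. puc had 10 peaks, cbt 3, hep 1 and Jra 1, while kay and bsk had 0. A peak was thus found at 4 of 6 genes, against 31.4% of the 13945 protein-coding genes taken with the same 5 kb flanks. Only puc, cbt and hep had a peak whose nearest start was their own, and the share of protein-coding genes with such a peak was not counted. A peak within 500 bp of an own start was found at 2 of 6, puc and cbt, against 9.65% of protein-coding genes. Any pooled summit was found at 5 of 6, against 76.2%. Of all pooled summits 11.9% were peaks, against 15 of 57 at these genes. These shares describe genes picked for their values and support nothing beyond them.

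**Figure D1:**
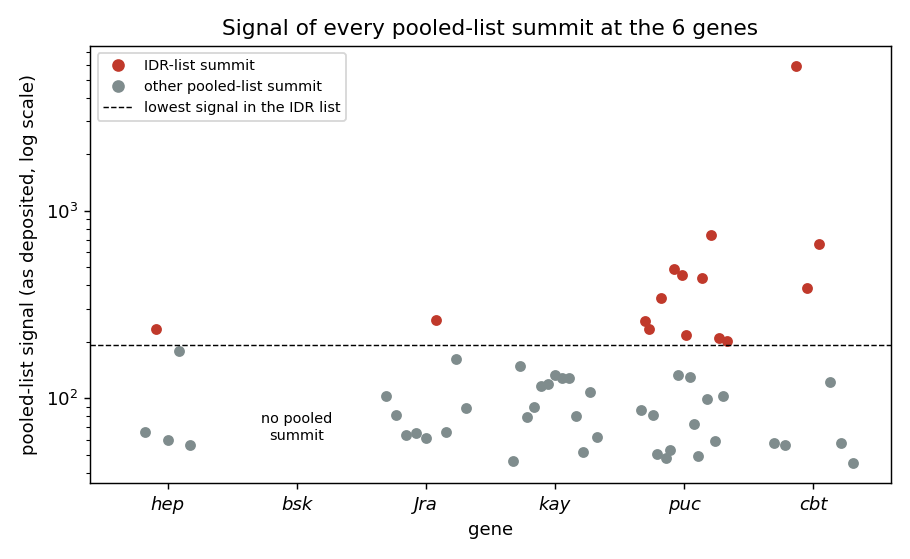
Signal of each of the 57 pooled-list summits at the 6 genes, on a log scale, with IDR-list summits in red, other summits in grey, and points in order of position within a gene. The dashed line is the lowest IDR-list signal, 193; the cbt promoter peak stands at 5926, and bsk has no pooled summit.

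The kinase gene hep (FBgn0010303; X, 13079205 to 13090434, minus strand, dm6) had a single weak peak in an intron. It lay at 13087967 to 13088406, with its summit 2247 bp downstream of the only annotated start. Its pooled signal was 233 and its pooled rank 2755. In replicates 1, 2 and 3 the highest overlapping region had signals of 109, 53.4 and 75.9, on the scale of each list, and ranks of 3354, 3680 and 2124. Replicate 2 thus placed it outside its own 3567 highest regions and the other replicates inside. Its mean percentile among all peaks was 23.8 ± 14.7 (SD, n = 3), in the lower part of the list.

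At the start of hep the replicates ordered the sites differently. A pooled summit 417 bp downstream of the start, just outside the IDR list, had a signal of 179 and rank 3989. In replicate 2 a region with its summit 343 bp downstream of the start was the highest at hep, with rank 2445. The corresponding regions had rank 3933 in replicate 1, 425 bp downstream, and 6444 in replicate 3, 456 bp downstream. In replicates 1 and 3 the intronic site was therefore the higher one, and in replicate 2 the site near the start. The neighbouring gene lic, which encodes a kinase of the related p38 pathway, is transcribed away from hep, and the pooled summit 105 bp upstream of its start had a signal of 56.5.

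The Jun kinase gene bsk (FBgn0000229; 2L, 10247502 to 10250501, minus strand) had no summit in the pooled list, although a replicate list held a high region at its promoter. The nearest pooled summits lay 14989 bp from one end of the gene and 10501 bp from the other. In replicate 1 a region at 10249617 to 10250076, with its summit 105 bp upstream of a bsk start, had a signal of 110 and rank 3321, inside the 3567 highest. Replicate 2 had a region with its summit 69 bp upstream of that start, with a signal of 35.6 and rank 7427. Replicate 3 listed no region at bsk or within 5 kb. A region this high in replicate 1 with no pooled region overlapping it was rare: of its 3567 highest regions 28 were in this position, 0.785%. The numbers were 18 for replicate 2 and 22 for replicate 3. The sources used here do not say how the pooled list was cut, and why this region is not in it was not tested.

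The 2 genes for the AP-1 subunits carried no peak that was nearest to their own starts. Jra (FBgn0001291; 2R, 10096480 to 10098556) had 9 pooled summits in its window, 6 of them nearest to starts of 14-3-3zeta, an adaptor protein gene that begins past the end of Jra. The highest was the peak at 10100656 to 10101095, 160 bp upstream of a 14-3-3zeta start, with a signal of 261 and rank 2382. It ranked 3525, 2039 and 1671 in replicates 1 to 3, and it would not have been counted with a flank of 2000 bp. Replicate 3 ranked a second region in 14-3-3zeta slightly higher, at 1664, which in the pooled list was below the peaks at 162. The 3 summits nearest to Jra starts lay 596 and 328 bp upstream of the first start and 35 bp downstream of the second. Their signals were 103, 81.1 and 63.5, all below the IDR list.

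kay (FBgn0001297; 3R, 29765995 to 29794113, plus strand) showed many low summits spread along the gene and no peak. Its 13 pooled summits had signals from 46.3 to 148 and ranks from 5267 to 28246. The highest reached 148 and stood 2601 bp before the first start, where the replicate ranks were 7382, 6438 and 6629. Of 4 annotated starts, the first had a summit 55 bp upstream with a signal of 90.1, and the second had one 73 bp downstream with a signal of 128. A cluster of 3 intronic summits stood 1020, 1328 and 1550 bp upstream of that second start, with signals of 133, 119.6 and 115.4. Few protein-coding genes, 5.14%, had as many pooled summits as kay, and kay is long: of the 502 genes with a window 0.8 to 1.25 times as long, 46.6% likewise had no peak. In the replicate lists only 1 region at kay was among the 3567 highest, in replicate 3 at rank 3097, with its summit 274 bp from the start of lncRNA:CR46110, a non-coding RNA gene inside kay.

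The phosphatase gene puc (FBgn0243512; 3R, 8105332 to 8122294, plus strand) held a series of peaks along its whole length. The 10 peaks in its window spanned 21743 bp, with neighbouring summits 199 to 5000 bp apart. Only 2 of the 10 were nearest to a puc start. Of the others, 4 were nearest to lncRNA:CR44331, 3 to CG7878 and 1 to Arl8, so position alone assigned them to puc, and which gene they act on was not tested. At least 10 peaks were found at 12 of 13945 protein-coding genes, 0.0861%, puc included. Among the 858 genes with a window 0.8 to 1.25 times as long the median was 1 peak, and puc alone reached 10. Of its peaks 8 lay inside the gene. The other 2 lay past its end, 381 bp upstream of a start of CG7878 with a signal of 208, and 489 bp downstream of a start of Arl8, which encodes a small GTPase of lysosome transport, with a signal of 201.3.

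The strongest puc peaks were intronic and not at its starts, as the maps of summits along the genes show. The highest lay at 8119951 to 8120278, near the 3' end of the gene and 14780 bp from the first start, with a pooled signal of 745 and rank 675. Its nearest start was that of CG7878, 2613 bp away. It ranked 798, 738 and 484 in replicates 1 to 3, with signals of 350, 180 and 221 in the separate lists, and its mean percentile was 78.5 ± 5.2 (SD, n = 3). All replicates placed it highest among the puc peaks. A further intronic peak 883 bp upstream of it, at 8119116 to 8119343, had a signal of 439 and ranks of 1395, 1870 and 966.

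**Figure D2:**
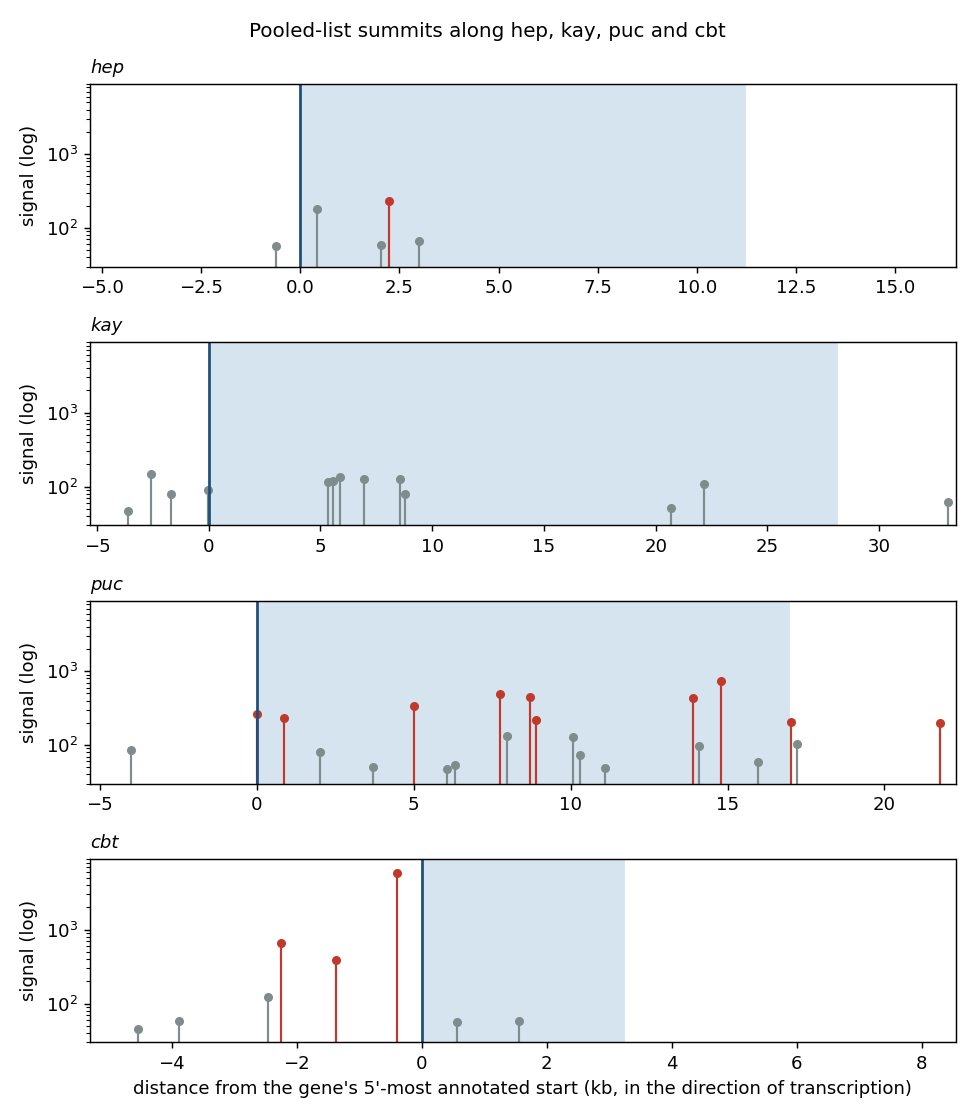
Pooled-list summits along hep, kay, puc and cbt, drawn as stems at their distance from the gene's most upstream annotated start (kb, in the direction of transcription), with signal on a log scale. The blue band is the annotated gene, red marks IDR-list summits and grey other pooled summits; puc has red stems from its start to past its end, and the red stems of cbt lie upstream of the gene.

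A second group of puc peaks surrounded lncRNA:CR44331, a non-coding RNA gene transcribed on the opposite strand inside a puc intron. The peak at 8112976 to 8113195 had a signal of 488, the second highest at puc, and lay 908 bp downstream of the start of that RNA gene. It ranked 901, 2023 and 1458 in the replicates, a wider range than the leading peak. The peak at 8113929 to 8114201 had a signal of 452 and its summit 27 bp upstream of the same start. Another summit 199 bp away, with a signal of 218, is the one with TGAGTCA in the sequences above. Its region overlaps the same replicate regions as the peak beside it, at ranks 1102, 1227 and 2069, so the replicates do not separate these summits by overlap. Taken by the nearest replicate summit within 100 bp, it had ranks of 23734, 23247 and 2069. The remaining intronic peak, at 8110236 to 8110442, had a signal of 340 and close ranks of 1867, 1608 and 1794.

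The peaks at the puc starts were weaker than those in its introns. The summit 19 bp downstream of the first start had a signal of 259 and rank 2402, and the one 287 bp upstream of the second start had 232.5 and rank 2766. The first of these ranked 4604 in replicate 1, outside the 3567 highest, but 1511 and 1862 in replicates 2 and 3. The second ranked 3162, 1826 and 3185, inside in every replicate. Inside puc, both were lower than all other peaks except the one with TGAGTCA. A further 12 pooled summits at puc, with signals from 47.9 to 133, were below the IDR list.

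At cbt (FBgn0043364; 2L, 476446 to 479688, minus strand) a single promoter peak exceeded every other summit of the 6 genes. It lay at 479569 to 480478, a region of 910 bp, with its summit 395 bp upstream of the only cbt start and inside an intron of ush, which encodes a cofactor of GATA factors. Its pooled signal of 5926 had rank 5 of 30000, against 745 for the highest peak at puc. It ranked 6, 6 and 7 in replicates 1 to 3, with signals of 3064, 1598 and 1260 in the separate lists. Its mean percentile among all peaks was 99.8 ± 0.016 (SD, n = 3). A percentile cannot pass 100, so this SD near the top of the list is not comparable with those at hep and puc.

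Beside this peak cbt had a pair of weaker peaks further upstream, and all its peaks lay within 1856 bp. The one 2251 bp upstream of the start, at 481799 to 482120, had a signal of 666 and rank 781, and it ranked 611, 1302 and 1011 in the replicates. The one 1368 bp upstream, at 480975 to 481216, had a signal of 387 and rank 1472, and ranks of 1636, 2539 and 1256. Every cbt peak was among the 3567 highest regions of each replicate. Within the transcribed part of cbt the 2 pooled summits had signals of 57.5 and 55.9, far below the peaks. Counted without regard to the nearest start, as for all genes, the cbt window held 5 peaks, and at least 5 were found at 154 of 13945 protein-coding genes. That cbt lies within ush means that distance alone assigned these peaks to cbt, and which gene they act on was not tested.

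The peaks nearest in rank to the cbt promoter peak lay at aay, numb, zf30C, gish, Lk6 and aop, the last 2 at an equal distance of 3 ranks. Their pooled signals were 7013 at aay, 5742 at numb, 8287 at zf30C, 5457 at gish, 9600 at Lk6 and 5401 at aop. Of these 6, 4 were promoter peaks with summits within 200 bp of a start, and those of Lk6 and aop were intronic. The cbt summit, 395 bp from its start, counted as a promoter peak with the window of 500 bp but not with 200 bp. The peaks of Lk6, zf30C and aay kept ranks 2, 3 and 4 in every replicate. That of numb ranked 5, 8 and 22, that of gish 7, 10 and 13, and that of aop 20, 5 and 5, all wider than the 6, 6 and 7 of cbt.

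Across the genes, 11 of 15 peaks were among the 3567 highest regions of all 3 replicates, against 65.3% of all peaks. The 4 others were the hep peak, the peak at the first puc start and the peaks at CG7878 and Arl8. Counting a replicate only by its nearest summit within 100 bp, an alternative added after the data were examined, left 8. Replicate summits lay close to the pooled ones: over 45 pairs of a peak and a replicate the median distance was 16 bp, the largest 103 bp, and 27 were within 20 bp. The pooled list was made from the same replicates, so this describes the lists and is no independent check.

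**Figure D3:**
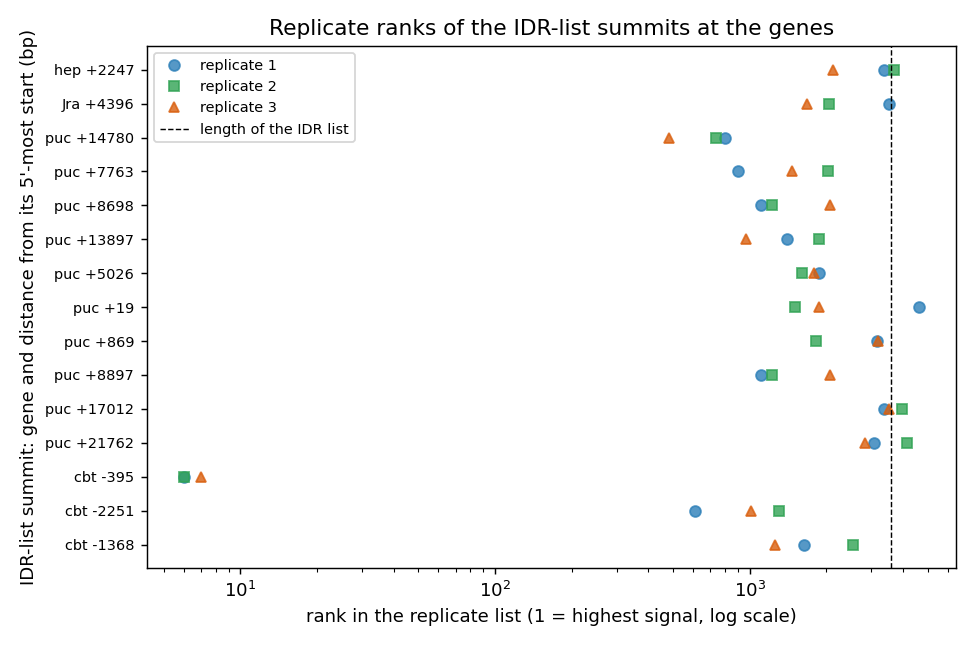
Rank of the highest overlapping region in each replicate list (log axis, 1 = highest signal) for the 15 IDR-list summits, labelled by gene and distance in bp from its most upstream start. The dashed line is at rank 3567; the cbt peak at -395 stands at ranks 6 to 7, all other peaks lie between ranks 484 and 4604.

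By position, 8 of 15 peaks were within 500 bp of an annotated start and 7 were intronic, against 39.5% and 36.5% of all peaks. Of the 8, only 3 were at starts of puc or cbt; the others were at lncRNA:CR44331 (2), 14-3-3zeta, CG7878 and Arl8. With a promoter window of 200 bp the count fell to 3, since 5 of the 8 summits stood 226 to 489 bp from the start. The strongest cbt peak, at 395 bp, was among these 5. The count of 3 has no matching share over all peaks here and is not read against 39.5%. The peak upstream of CG7878 lay between puc and CG7878, and counted as a promoter peak by distance only. Among the 42 pooled summits outside the IDR list 13 were at promoters, 21 in introns and 3 between genes. Over all pooled summits outside the IDR list these shares were 25.8%, 40.6% and 22.3%. Of the 42, 2 were in 5' UTRs, both at cbt, against 1.09% over all. A 3' UTR, a non-coding exon and a coding exon held 1 each, the last at puc, against 2.65%, 1.14% and 6.45%.

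**Figure D4:**
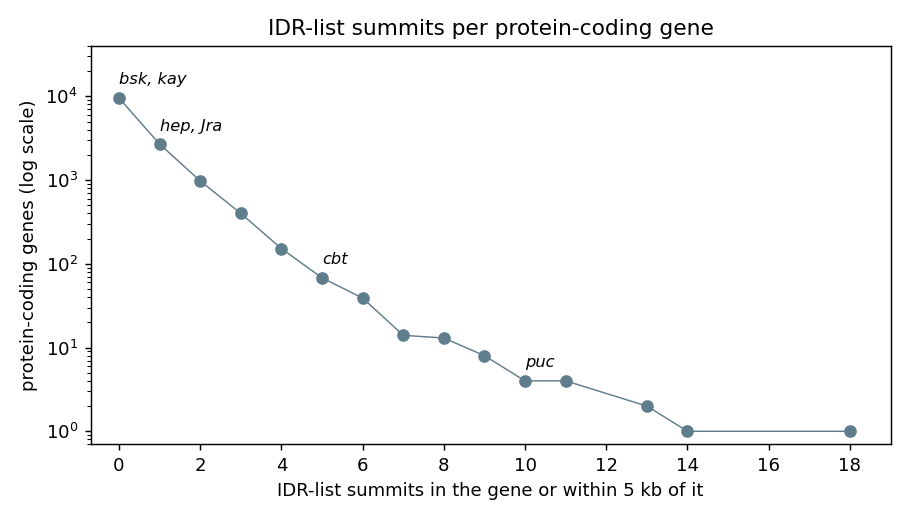
Number of protein-coding genes (log axis) with each number of IDR-list summits in the gene or within 5 kb of it. bsk and kay fall among the 9572 genes with 0, hep and Jra among the 2689 with 1, cbt at 5, since summits nearest to other genes count here as well, and puc at 10.

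The motif content of the peaks was mixed, and no searched motif was common to them. GAGAG was in 6 of 15 windows of 100 bp on either side of the summit, against 34.5% of other peaks and 26.6% of other pooled regions; these were 4 puc peaks, the cbt promoter peak and the peak at 14-3-3zeta. ACACTG was in 4, at hep and 3 puc peaks, against 29.5% and 14.2%. TGANTCA was in 1, the puc summit named above, against 4.70% and 4.04%. GGTCACACT, the motif of M1BP, was in 1, at -78 bp from the summit at the first puc start, against 1.38% and 1.10%; its last letters can overlap ACACTG. The repeat CACACA was in 1 puc window, against 22.7% and 21.4%, and CATTCC, the core recognised by Scalloped, in 1, the cbt peak 1368 bp upstream, against 7.43% and 9.07%. TGACGTCA, the cyclic AMP response element, was in 0 of 15, against 0.45% of other peaks. TATCGATA, bound by the replication-related element factor DREF, was in 0, against 1.89%. The early embryonic factor Zelda recognises CAGGTAG, which was in 0, against 1.18%. Every motif was searched on both strands. A match is a description of the letters in the window and not a bound site.

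ACACTG was picked after the data were examined, as the 6-mer with the largest gain near the summit over the 3552 peaks at other genes. It was within 50 bp of the summit in 705 of them, 19.8%, and in 5.04% of stretches of the same length 250 to 350 bp before it on the plus strand. The gain of 526 peaks was hardly above the 524 of the next 6-mer, GAAAAA. GC content of the 15 windows ran from 29.4% at the start of lncRNA:CR44331 to 55.7% at the puc peak with a signal of 439. The quartiles over all peaks were 33.3% and 43.3%. Of the 15 windows, 1 fell below them and 4 above, 3 of these at puc and 1 at 14-3-3zeta.

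Other genes of the pathway were taken from 4 lists of 43 genes in all, written with earlier results on these lists known. Of the 43 genes 16 had a promoter peak, 37.2%, beside the 9.65% of all protein-coding genes, and a peak in the gene or within 5 kb at 24, 55.8%, beside 31.4%. The median number of peaks was 1 in the lists and 0 over all protein-coding genes. Gene length was not matched in these comparisons, and longer genes more often had a peak. Among genes with a window like that of bsk, 73.1% had no peak. For windows like that of puc it was 48%, and the median there was also 1 peak. The promoter count was 9 without replicate 2, 10 without replicate 3 and 13 without replicate 1, in each case keeping peaks among the highest regions of both other replicates. These smaller counts have no matching share over all genes here and are not read against 9.65%. Genes named here for having no peak were picked after their values were seen.

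Upstream of the kinases, the receptor gene wgn had a promoter peak with a signal of 217 and rank 3035, the only one among the ligand and receptor genes. The ligand gene egr had an intergenic peak 721 bp upstream with a signal of 199.9. At the receptor gene grnd the only peak, with a signal of 2056, was 286 bp upstream of a start of CG10283. Of 21 genes for adaptors and upstream kinases 8 had a promoter peak, 38.1%, beside 9.65% of all protein-coding genes. Any peak was found at 13 of the 21 genes, 61.9%, beside 31.4%. Among promoter and intronic peaks of these genes the highest lay in an intron of msn, which encodes a kinase that acts upstream in dorsal closure, with a signal of 1074. It ranked 436 and 444 in replicates 1 and 2 and was higher in replicate 3. The deubiquitinase gene CYLD had a promoter peak of 945, the kinase gene Src64B an intronic peak of 876, the small GTPase gene Rac2 a promoter peak of 792, and ben, a ubiquitin-conjugating enzyme gene, one of 709. These 4 ranked between 364 and 834 in every replicate. The kinase genes slpr and Ask1 and the adaptor genes Traf4 and Traf6 had no peak, while Traf4 had 23 pooled summits.

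Among 8 genes for nuclear partners and negative regulators 3 had peaks, 37.5%, beside 31.4% of all protein-coding genes. Each of the 3 had an intronic peak stronger than its promoter peak. They were aop, an ETS-domain repressor (5401 in an intron and 282 at a promoter), rib, a BTB-domain nuclear protein (1777 and 224), and raw, which restrains the pathway in dorsal closure (1107 and 263). At puc the highest peaks were also intronic, though nearest to starts of other genes. No peak had its summit inside cbt, and its weaker peaks were upstream in an intron of ush, so the same comparison cannot be made there. How often intronic peaks exceed promoter peaks over all genes was not counted. The stress factor genes Atf3 and Atf-2 and the phosphatase gene Mkp had no peak.

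Among 11 dorsal closure genes and other targets 4, or 36.4% beside 9.65% of all protein-coding genes, had a promoter peak. They were scb, an integrin gene (signal 1427), zip, the non-muscle myosin heavy chain gene (642), chic, the profilin gene (239.6), and jar, a myosin VI gene (211). Those of chic and jar ranked 6009 and 9260 in replicate 1, outside its 3567 highest, and those of scb and zip were inside in every replicate. dpp, the secreted signal that the pathway turns on at the leading edge, had 15 pooled summits and no peak. Ilp8 and Mmp1 had no pooled summit, and the cell death genes rpr and hid had 9 and 21 but no peak.

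Of 8 Sp and KLF family genes related to cbt, 4 had a peak in the gene or within 5 kb, 50%, beside 31.4% of all protein-coding genes. Only luna (signal 257) and Spps counted as having one at a promoter, 25%, beside 9.65%. The intronic peaks of dar1 (signal 913) and luna (683) were inside the 3567 highest in every replicate. The peak at Spps reached 203 and counted as its promoter peak, but the nearest start, 24 bp away, was that of CG13609. It ranked 6001, 4150 and 2373 in replicates 1 to 3, inside the 3567 highest only in replicate 3. The peak at btd, 711, was nearest to lncRNA:CR42657. Sp1, Klf15, CG42741 and hkb had no peak. None of these signals reached that of the cbt promoter peak.

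The counts depend on which summits are taken: with a flank of 2000 bp the total of 15 peaks was 12, and with a flank of 0 bp it was 9. The last summit of the 6 genes inside the IDR list, at Arl8, had a signal of 201.3 and rank 3367, and the first outside, at hep, had 179 and rank 3989. The farthest summit taken lay 4963 bp from kay with a signal of 62.3, and the nearest one not taken lay 5177 bp from puc with a signal of 54.0. Among peaks, the farthest one taken was that at Arl8, 4800 bp past the end of puc. The nearest peak not taken, by distance from any of the 6 genes, lay 16211 bp from bsk. For cbt, this counts only peaks nearest to its own start.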

How the data were processed

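ChIP-seq regions were taken from 5 lists on genome build dm6: 1 for each of 3 biological replicates, 1 pooled and 1 IDR list. Per the labels, chromatin was sonicated to fragments of 200 to 800 bp. Per the notes beside the files, each replicate list was made from that replicate and 1 shared control, and the pooled list from all of them; the sources used here name no caller, version or IDR threshold. The signal values are as the authors deposited them, with no unit stated. The deposited −log10 q-values were equal for all IDR-list summits and were not used to rank. The lists hold no depth.

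Summits were placed with the Ensembl release 115 annotation, 23581 transcription starts on 6 arms without transposable elements, and sequence came from RefSeq's copy of Release 6; no region passed an arm's end. Summits within 500 bp of a start were classed as promoter, and the rest by the exon type, intron or gap they fell in, with 5' UTR before coding sequence and coding before 3' UTR. Replicate values are those of the highest region overlapping by at least 1 bp, and percentiles are among all peaks. Counting functions were tested on simulated data. No statistical test was run: there is 1 group, and members and lists were chosen with earlier results of these data known. All 6 genes were named with every peak, and list genes by rank of their promoter or intronic peak, up to 5 per list. Python 3.11.15, pandas 2.3.3 and numpy 2.4.6 were used. Alternatives were other flanks, windows, list lengths and each replicate left out.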

Additional observations from a re-analysis of the deposited data

How the results depend on the processing

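Under the alternatives, puc kept the most peaks of the 6 genes except when a summit counted only for the gene of its nearest start, where it had 2 and cbt 3. The total of 15 peaks was 8 among the 1783 strongest summits, 9 with a flank of 0 bp and 6 by nearest start; leaving out a replicate gave 11 to 14. The share of protein-coding genes with a peak was 18.7% with those 1783 and 9.15% with a flank of 0 bp, and 23.3 to 24.3% without a replicate. Pathway genes with a promoter peak numbered 6 with those 1783, 8 with support from all replicates and 9 to 13 without a replicate. Promoter peaks at the 6 genes were 3 with a window of 200 bp, with no matching share over all peaks here. Mean percentiles among all regions of a replicate list, rather than among peaks, were 89.8 for hep, 91.96 for Jra, 97.8 for puc and 99.98 for cbt. With 50 bp on either side of the summit, GAGAG was in 3 of the 15, against 18.8% of other peaks. TGANTCA and CACACA were in 0, against 2.34% and 12%. GGTCACACT was in 0 and ACACTG in 2, against 0.901% and 19.8%. With 200 bp on either side GAGAG was in 10 of the 15, against 54.4%, and TGANTCA in 3, against 9.52%. CACACA was then in 8, against 40.7%, and CATTCC in 2, against 14.9%. These windows differ in length by construction. The hep peak was lost without replicate 1 and without replicate 3, since replicate 2 ranked it 3680. No paired analysis was possible because there is 1 group. Depth is unknown, so no region's height has an interval.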

Other observations

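The region at the bsk promoter was 1 of 28 among the highest of replicate 1 that no pooled region overlaps. Over all 30000 regions of each list, 17.5% in replicate 1, 24.9% in replicate 2 and 26.3% in replicate 3 overlapped no pooled region. At kay this held for 5, 3 and 6 regions in replicates 1 to 3, with 19728 the highest rank among them, at hep for 0, 4 and 3, and at puc for 2 regions of replicate 3, the higher at rank 13725. At cbt and Jra it held for 0. The bsk region was thus the only one at these genes that was high in its own list and missing from the pooled one.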
